A study of Mus musculus with 6 samples.

Results

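The microRNAs (miRNAs) described here are grouped under choroid plexus and ciliated epithelium, namely miR-204, miR-211 and the family of miR-34 and miR-449. Not every member marks those cells: miR-34a is made in many tissues, and miR-211 is best known from pigment cells. The members were taken from the raw table of the TaqMan OpenArray rodent panel by miRNA name alone, ignoring species prefix and arm, with every assay kept. Of 750 miRNA assays, 11 matched, for 6 of the 8 named miRNAs: 2 for miR-204, 1 for miR-211, 1 for miR-34a, 3 for miR-34b, 2 for miR-34c and 2 for miR-449b. No assay carried the name miR-449a or miR-449c. One more assay, hsa-miR-449 (001030), has no letter in its name, so the rule did not take it, and it is given apart.

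The RNA came from whole prefrontal cortex of 6 untreated male mice aged 5 months, 3 of them wild-type C57BL/6J and 3 BTBR, whose genotype the labels write as BTBR T+ Itpr3tf/J. The labels enter C57BL/6J as the strain background of both groups, although BTBR is an inbred strain of its own, studied for behaviour that resembles autism. Each mouse gave 1 sample. Each assay gave a cycle threshold, the number of PCR cycles needed to reach a fixed signal, so that a lower value stands for more RNA. A value of 40 was read as undetermined, and an assay is called detected where its raw threshold lies from 10 up to, but not at, 40.

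miR-204 lies in the gene Trpm3 and miR-211 in its relative Trpm1. Both silence the same kind of targets, and miR-204 is among the most abundant miRNAs of choroid plexus and retinal pigment epithelium, while miR-211 is best known from pigment cells. The family of miR-34 and miR-449 has 3 loci. miR-34a is made in many tissues and is induced by the tumour suppressor p53, whereas the miR-34b/c and miR-449 loci are most active in cells with motile cilia, such as ependyma, choroid plexus and airway epithelium, where the family is needed for making cilia. The choroid plexus and ependyma line the ventricles and are not part of the cortex.

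The mature sequences show which members can be expected to share targets, since a miRNA recognises them mainly through its seed. RefSeq (GRCm38.p6) held 13 mature sequences for 7 of the 8 miRNAs, matched by name; miR-34c-5p and miR-449b are not among them, and the files give no assay sequences. In the lines below bases 2 to 8, the seed, are in capitals.
mmu-miR-204-5p: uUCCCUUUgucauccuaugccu
mmu-miR-211-5p: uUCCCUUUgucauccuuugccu
mmu-miR-34a-5p: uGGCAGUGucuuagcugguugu
mmu-miR-34b-5p: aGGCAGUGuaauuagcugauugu
mmu-miR-449a-5p: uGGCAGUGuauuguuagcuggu
mmu-miR-449c-5p: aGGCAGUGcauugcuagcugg
mmu-miR-34b-3p: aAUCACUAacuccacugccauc
mmu-miR-34c-3p: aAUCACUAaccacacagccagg
mmu-miR-204-3p: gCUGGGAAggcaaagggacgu

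miR-204-5p and miR-211-5p had the seed UCCCUUU and were identical at 21 of 22 positions, differing by A17U (counted from the 5′ end, miR-204 first). One more sequence of the table, mmu-miR-7670-3p, carried that seed. The 5p arms of miR-34a, miR-34b, miR-449a and miR-449c had the seed GGCAGUG, carried by these 4 of the 1679 mature mouse sequences in the table. That count leaves out miR-34c-5p and miR-449b, for which no mature sequence was held. Compared position by position without gaps, miR-34a-5p matched miR-449a-5p at 15 of 22 positions and miR-34b-5p at 11 of 22. miR-34b-5p has 23 bases and miR-34a-5p 22. A base added within the arm shifts all later positions, so these counts do not rank how alike the arms are. The 3p arms of miR-34b and miR-34c formed a pair of their own with the seed AUCACUA, matching at 17 of 22 positions.

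The arms sit on hairpins, shown here for the 2 miRNAs of which both arms had assays that the results turn on, with the mature arms in capitals (the 5p arm first).
Mir204: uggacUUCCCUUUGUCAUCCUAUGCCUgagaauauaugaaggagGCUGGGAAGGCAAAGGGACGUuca
Mir34b: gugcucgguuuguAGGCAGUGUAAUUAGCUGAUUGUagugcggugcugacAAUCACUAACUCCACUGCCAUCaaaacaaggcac

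In that build Mir204 lies on the plus strand at chr19:22750605-22750672, inside Trpm3. Mir34b lies on the minus strand at chr9:51103562-51103645 and Mir34c at chr9:51103034-51103110, with 451 bases between them, both inside the bounds of Btg4 and Hoatz. Mir211 (chr7:64205806-64205911) lies inside Trpm1, Mir449a (chr13:113037534-113037624) and Mir449c (chr13:113035983-113036091) inside Cdc20b, a gene of ciliated cells, and Mir34a stands at chr4:150068454-150068555.

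The panel itself differed between the strains, which touches every result below. The number of assays detected ranged from 289 to 305 of 750 in C57BL/6J and from 347 to 404 in BTBR, and of 80 endogenous control spots 59 to 63 were detected in C57BL/6J against 78 to 80 in BTBR. BTBR replicate 3 stood apart from its group, with raw thresholds closer to the C57BL/6J mice (Pearson r = 0.937 to 0.964 over the 237 assays detected in every sample) than to BTBR replicates 1 and 2 (0.918 and 0.911). Of 11 assays of a neuron list, 7 were detected in all 6 mice, among them miR-9# at 13.49 to 14.09 cycles. Of the other 4, hsa-miR-9 was read in BTBR replicates 1 and 2 alone, and hsa-miR-124# in the 3 C57BL/6J mice and no BTBR mouse. Of 3 assays of a blood list, miR-451 was detected in all 6 mice at 19.74 to 21.43 cycles, miR-486 in the 3 BTBR mice alone and miR-144 in none, and of 6 oligodendrocyte assays 4 were detected in all 6 mice.

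In the cortex, miR-204 and miR-34a were the members with early thresholds in every mouse, and miR-211 and the 5p arm of miR-34b were not detected in any. The 3p arm of miR-34b was read early in all 3 BTBR mice and in no C57BL/6J mouse, and both arms of miR-34c were read in BTBR mice only. Of the 11 assays, 4 were detected in all 6 mice, 4 in none and 3 in BTBR mice only. Over the whole panel 31.6% of assays were detected in all 6 mice and 38.4% in none. Each of the 3 was detected in at least 2 BTBR mice and in no C57BL/6J mouse, as were 10.9% of the panel, and the opposite held for 1.47%.

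**Figure D1:**
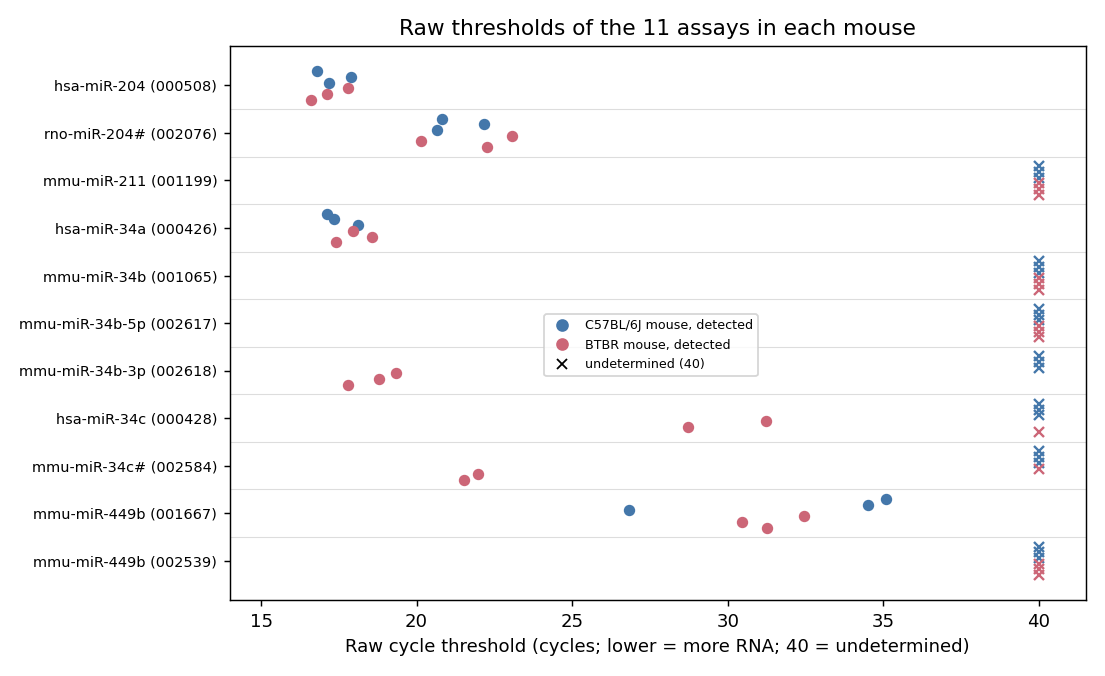
Raw cycle threshold (horizontal axis, cycles) of each of the 11 assays (rows) in each of 3 C57BL/6J and 3 BTBR mice; circles are detected values and crosses at 40 undetermined ones. The strains overlap for miR-204, miR-204#, miR-34a and miR-449b, while miR-34b-3p has circles for the 3 BTBR mice alone, from 17.81 to 19.34 cycles.

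The guide arm of miR-204 (assay hsa-miR-204, 000508) had raw thresholds of 16.81, 17.88 and 17.17 cycles in C57BL/6J replicates 1 to 3 and 17.79, 17.12 and 16.62 in BTBR replicates 1 to 3. The strains overlapped fully, with the lowest value in a BTBR mouse and the highest in a C57BL/6J mouse. The means were 17.29 ± 0.544 and 17.18 ± 0.587 cycles (SD, n = 3 each). On the authors' quantile-normalized values they were 17.08 ± 0.361 and 17.38 ± 0.516, a log2 change of -0.30 in BTBR (standard error 0.39, 95% interval -1.25 to 0.65, limma adjusted p = 0.554).

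The other arm (rno-miR-204#, 002076; # in a name marks the strand taken as less abundant) is the 3p arm printed above by its name. Its raw thresholds were 20.83, 22.17 and 20.66 cycles in C57BL/6J and 23.07, 20.14 and 22.27 in BTBR, so BTBR replicates 1 and 3 read later than every C57BL/6J mouse and BTBR replicate 2 earlier than every one. The normalized values were 20.54, 21.44 and 19.95 in C57BL/6J and 23.58, 21.44 and 22.55 in BTBR, where the ranges met at 21.44. That gave 20.64 ± 0.751 against 22.52 ± 1.07 cycles (SD, n = 3 each), a log2 change of -1.88 (standard error 0.67, 95% interval -3.53 to -0.23), with an unadjusted p of 0.0316 and a limma adjusted p of 0.0702. The assay passed when only the 189 assays with 3 values per strain were tested (limma adjusted p = 0.0478). In that setting 82 of the 189 assays passed, 81 of them lower in BTBR, so the call is shared by much of the panel. Without BTBR replicate 3 the change of miR-204# was -1.87 (limma adjusted p = 0.104).

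The 2 arms come from 1 hairpin and were compared within each mouse. A single shift of all thresholds of a sample leaves the gap between them as it is, whereas quantile normalization, or scaling pool A (miR-204) and pool B (miR-204#) apart, can change it. This comparison was chosen after the values were seen. The raw gap, threshold of miR-204# minus that of miR-204, was 4.02, 4.29 and 3.49 cycles in C57BL/6J and 5.28, 3.01 and 5.66 in BTBR. It was wider in BTBR replicates 1 and 3 than in any C57BL/6J mouse and narrowest in BTBR replicate 2. The mean difference was 0.718 cycles (exact permutation p = 0.5, two-sided, 3 against 3 mice), and 1.58 on the authors' values (exact permutation p = 0.2). Without BTBR replicate 3 the raw difference was 0.215 and without BTBR replicate 2 it was 1.54. The same gap for miR-34a minus miR-204 differed by 0.555 cycles (exact permutation p = 0.5); these were the 2 gaps computed, and both p stay at 0.5 after Benjamini-Hochberg adjustment.

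miR-211, which shares its seed with miR-204, was undetermined in all 6 mice (mmu-miR-211, 001199). Whether this assay would read miR-211 in a tissue that makes it was not tested.

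miR-34a (hsa-miR-34a, 000426) is the member of its family with broad expression. Its raw thresholds were 17.13, 17.33 and 18.13 cycles in C57BL/6J and 17.95, 18.58 and 17.40 in BTBR, ranges that overlapped. On the authors' values they were 17.29, 17.02 and 17.74 in C57BL/6J and 17.95, 19.34 and 17.80 in BTBR, and there every BTBR mouse read later than every C57BL/6J mouse. Such a gap in the direction of less RNA in BTBR was present in 57.7% of the 189 assays with 6 normalized values, so it is a common pattern of the normalized table. The means were 17.35 ± 0.363 and 18.36 ± 0.848 cycles (SD, n = 3 each), a log2 change of -1.01 (standard error 0.50, 95% interval -2.25 to 0.22, limma adjusted p = 0.155), or 2.02-fold less. Without BTBR replicate 2 the change was -0.53.

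**Figure D2:**
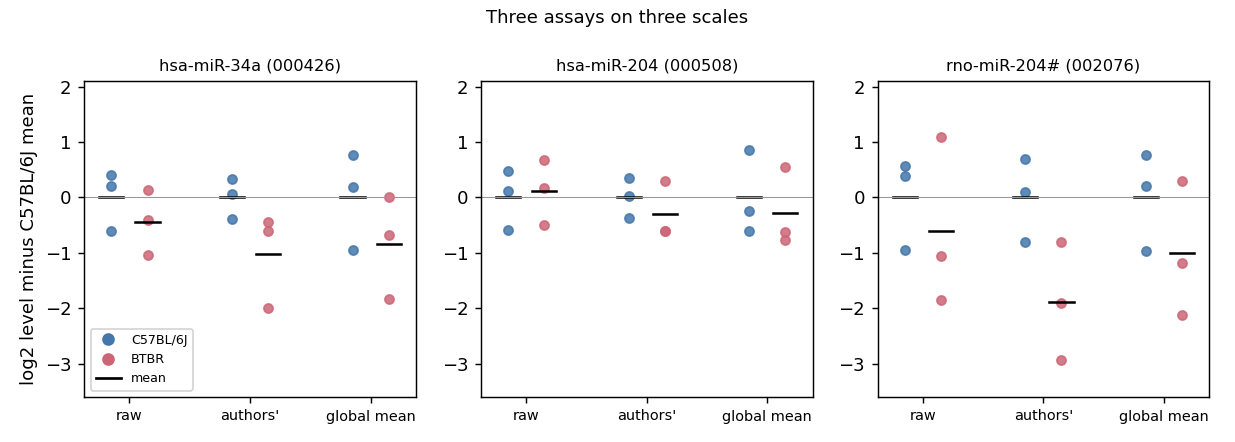
Level of miR-34a, miR-204 and miR-204# in each mouse (log2 scale, minus the C57BL/6J mean of the same scale) from raw thresholds, the authors' normalized thresholds and raw thresholds centred on the global mean; points are mice and bars are means of 3. On the authors' scale the BTBR means lie at -1.01, -0.30 and -1.88, and the mice of the strains overlap for miR-34a in the raw and global mean values but not in the authors'.

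Each of these changes is read against the panel. On the authors' scale the median change of the 231 assays tested was -1.13, and 85 of them passed in limma (36.8%), 3 higher and 82 lower in BTBR (35.5%). That split was 26 higher and 70 lower with 40 kept as a value, and 1 higher and 1 lower with sample medians set equal. The count of 85 dropped to 0 when BTBR replicate 1 was left out, and also when C57BL/6J replicate 3 was. Leaving out BTBR replicate 2 gave 8 and leaving out C57BL/6J replicate 2 gave 3. Of the members, 3 could be tested, and 0 passed (1 had an unadjusted p under 0.05). Relative to the panel median, miR-34a lay at 0.11, miR-204 at 0.83 and miR-204# at -0.75 (log2). The member median was -1.01. Beside it, 1 of 7 tested neuron assays fell (hsa-miR-129, -1.67, limma adjusted p = 0.0301) with a list median of -0.09, and 1 of 3 oligodendrocyte assays (hsa-miR-338-3p, -3.08, limma adjusted p = 0.0336) with a median of -2.36. The 1 tested blood assay, miR-451, was at -0.21 and did not pass. With sample medians set equal, miR-34a was at 0.16 and miR-204 at 0.87, so the sign of both depends on the scaling.

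When raw thresholds were instead centred on the global mean of each mouse, miR-204 lay 4.96 ± 0.757 log2 units above that mean in C57BL/6J, against 4.68 ± 0.720 for the BTBR mice (SD, n = 3 each). The change was -0.28 (standard error 0.57, 95% interval -1.68 to 1.11, limma adjusted p = 0.733). The change of miR-204# was -1.0 (standard error 0.76, limma adjusted p = 0.402) and that of miR-34a -0.84 (standard error 0.66, limma adjusted p = 0.415), with the mice of the strains overlapping in each. The median of the 270 assays tested was -0.40 on this scale and that of the 4 members tested -0.56. In limma 0 of the 270 assays passed (0% of the panel, these lists included, 71 at an unadjusted p under 0.05), and 0 members passed, with 0 at an unadjusted p under 0.05. Without BTBR replicate 3, 57 assays passed, 23 higher and 34 lower, and again 0 members.

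**Figure D3:**
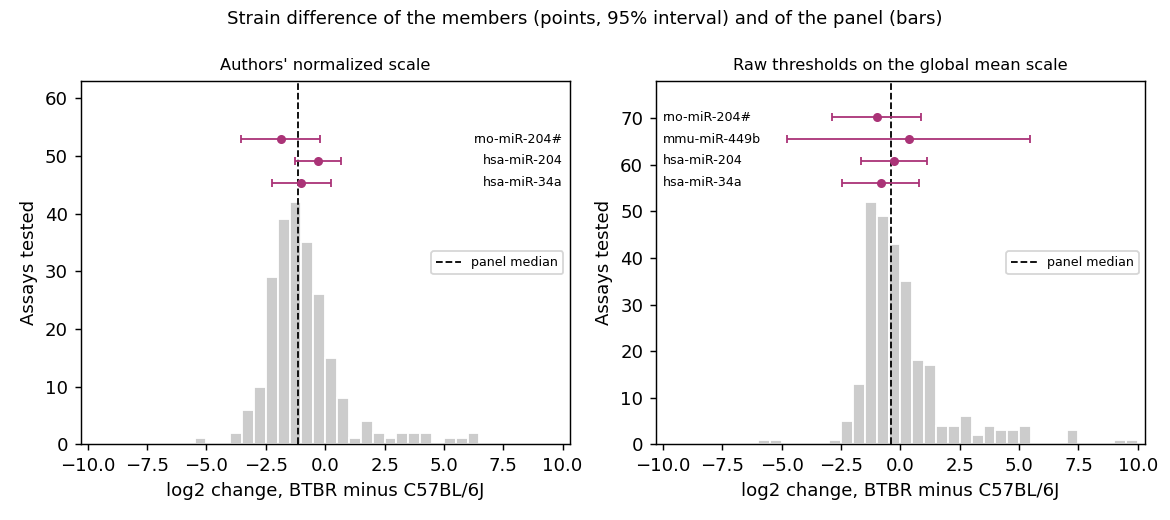
Log2 change, BTBR minus C57BL/6J, on the authors' scale (left, 231 assays) and on the global mean scale (right, 270 assays): bars count all assays tested, the dashed line is their median and points with 95% intervals are the members. On the left all 3 members lie within 1 log2 unit of the median of -1.13; on the right the interval of miR-449b is the widest.

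The miR-34b/c locus gave a contrast of detection between the strains. The 3p arm of miR-34b (mmu-miR-34b-3p, 002618) was undetermined in the 3 C57BL/6J mice and read at 19.34, 18.78 and 17.81 cycles in the 3 BTBR mice. On the authors' values the BTBR thresholds were 19.34, 19.63 and 18.21, a mean of 19.06 ± 0.748 cycles (SD, n = 3). The authors' deposited table gives 2011567.737-fold more in BTBR (adjusted p = 0.00782), a figure that takes 40 as the C57BL/6J threshold, and no fold follows from undetermined wells.

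Detection in all BTBR and no C57BL/6J mice was seen for 28 of the 750 assays (3.73%), and the opposite for 3 (0.4%). Of those 28, 26 were in pool A, the suffix of the assay's identifier that miR-34b-3p carries, which is 6.9% of the 377 assays of that pool against 0.536% of the 373 in pool B. The mean raw threshold of miR-34b-3p in BTBR, 18.64 ± 0.778 cycles (SD, n = 3), sat at the middle of the 28, whose means ran from 12.56 to 29.89 with a median of 18.66. The part of the wider panel difference in the reading of miR-34b-3p was not tested.

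The assay named for the 5p arm of miR-34b (mmu-miR-34b-5p, 002617), the arm with the GGCAGUG seed, was undetermined in all 6 mice, BTBR included. So was mmu-miR-34b (001065), whose name gives no arm. Both are in pool B. In BTBR the assay for the 3p arm of the hairpin printed above was therefore read in 3 of 3 mice and that for its 5p arm in none. The 3p assay is in pool A, so arm and pool cannot be told apart here. Whether the 5p assay would read its arm in a tissue that makes it was not tested.

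The neighbouring miR-34c had a related pattern. The strand that the # mark names as the less abundant (mmu-miR-34c#, 002584, pool B) was undetermined in C57BL/6J and in BTBR replicate 1 and read at 21.98 and 21.52 cycles in BTBR replicates 2 and 3. The unmarked assay (hsa-miR-34c, 000428, pool A) was undetermined in C57BL/6J and in BTBR replicate 3, and read late in BTBR replicates 1 and 2, at 31.24 and 28.71 cycles. Thus the mice that gave a value differed between the arms, and BTBR replicate 2 alone gave both, with the # strand the earlier (21.98 against 28.71 cycles). Detection in at least 2 BTBR and no C57BL/6J mice held for 10.9% of the panel, and the opposite for 1.47%. Neither miR-34c assay is in the normalized table, whose assays all have at least 3 detected values.

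miR-449b (mmu-miR-449b, 001667, pool B) was read in every mouse but late and unevenly. Its raw thresholds were 35.10, 34.50 and 26.82 cycles in C57BL/6J and 32.45, 30.47 and 31.28 in BTBR, so C57BL/6J replicate 3 lay below all BTBR mice and the other 2 C57BL/6J mice above them. The SD was 4.62 cycles in C57BL/6J and 0.993 in BTBR (n = 3 each). On the global mean scale its change was 0.35 with a standard error of 2.09 and a 95% interval from -4.77 to 5.47 (limma adjusted p = 0.896), which leaves the direction unresolved. Without C57BL/6J replicate 3 it was 2.83 and without C57BL/6J replicate 1 it was -0.94. The second assay of that name (mmu-miR-449b, 002539, pool A) was undetermined in all 6 mice. The latest detected value in the normalized table is 29.19 cycles, and miR-449b is not in it.

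The assay outside the rule, hsa-miR-449 (001030), bears the name under which miR-449a was first listed. It was undetermined in C57BL/6J replicate 1 and read at 30.98 and 29.89 cycles in C57BL/6J replicates 2 and 3, and at 29.66, 26.25 and 32.59 in BTBR. The strains overlapped, and these values too are late.

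Counted over the 11 assays, 4 were detected in each C57BL/6J mouse and 6, 7 and 6 in BTBR replicates 1 to 3. The counts did not overlap, with a mean difference of 2.33 assays and an exact permutation p of 0.1, the smallest that 3 against 3 mice allow. The whole panel moved the same way, from 298.3 ± 8.33 to 369.7 ± 30.2 assays (SD, n = 3 each; exact permutation p = 0.1). With thresholds up to 30 cycles counted alone, the members detected were 3, 3 and 4 in C57BL/6J and 4, 6 and 5 in BTBR, counts that meet at 4.

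**Figure D4:**
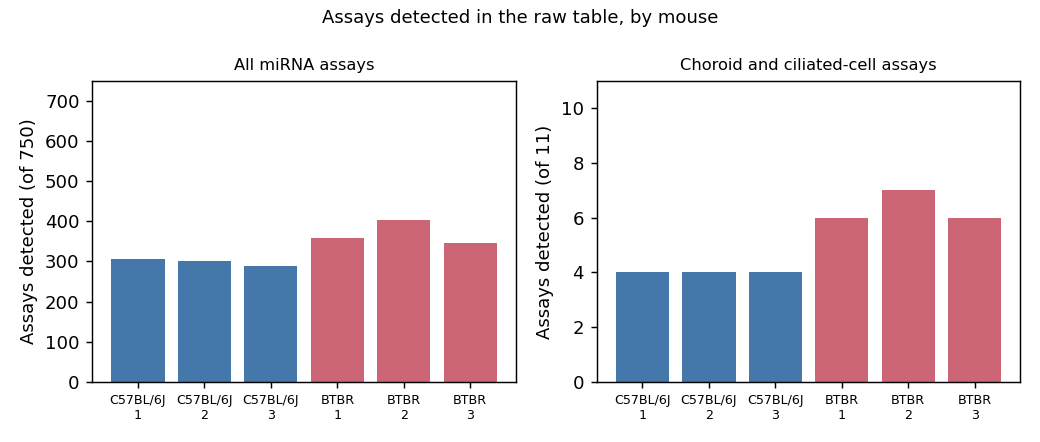
Assays detected in the raw table in each mouse, out of 750 for the panel (left) and out of 11 for the choroid and ciliated-cell miRNAs (right). Both counts are higher in the 3 BTBR mice, 347 to 404 against 289 to 305 on the left and 6 or 7 against 4 on the right.

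Other miRNAs of choroid plexus and ciliated epithelium were read beside the members: the miR-200 family, which keeps epithelia in their state, the miR-183 cluster of sensory and epithelial cells, and miRNAs of the Htr2c gene, whose serotonin receptor is abundant in choroid plexus. Of 18 such assays, 4 were detected in all 6 mice, 4 in none and 5 in BTBR mice only. Over the panel 31.6% were detected in all 6 mice and 38.4% in none. Detection in all BTBR and no C57BL/6J mice was seen for 1 of the 18 and for 3.73% of the panel. The panel share for detection in any number of BTBR mice only was not computed. On the authors' scale 6 of the 18 could be tested, 0 passed in limma and their median change was -0.33. On the global mean scale 7 could be tested, 0 passed and the median was 1.67. The tested assays with the earliest thresholds were hsa-miR-183 (002269) with a change of -0.78 on the authors' scale (standard error 2.17), hsa-miR-200c (002300) with 1.25 (1.54) and hsa-miR-183# (002270) with 0.13 (1.99). The mean raw threshold of hsa-miR-183 rests on 2 mice per strain, as C57BL/6J replicate 3 and BTBR replicate 3 were undetermined. In bulk tissue, fewer cells of a type and less RNA per cell cannot be told apart.

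Within that list, the miR-200 and miR-183 assays had their lowest thresholds in 1 mouse. BTBR replicate 2 held the lowest raw threshold in 12 of the 14 assays of that list detected in any mouse (85.7%), against 37.4% of the 462 such assays of the panel. All 12 belong to the miR-200 family or the miR-183 cluster. The other 2, both of the Htr2c gene, were lowest in C57BL/6J mice: hsa-miR-448 (001029) read 24.81 cycles in C57BL/6J replicate 1 and 28.40 in BTBR replicate 2, and mmu-miR-764-5p (002031) 24.19 in C57BL/6J replicate 3 and 24.42 in BTBR replicate 2. For hsa-miR-200b (002251) the BTBR thresholds were 20.66, 14.40 and 21.86 cycles, and for mmu-miR-182 (002599) they were 24.74, 20.80 and 29.59. For mmu-miR-429 (001077) they were 23.28, 17.73 and 38.05.

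Among the members, BTBR replicate 2 held the lowest raw threshold in 2 of the 7 detected in any mouse (28.6%), miR-204# and hsa-miR-34c. That is near the share of this mouse over the panel (37.4% of 462), and 7 assays are few. BTBR replicate 2 was not the lowest for miR-204 or miR-34b-3p, for which BTBR replicate 3 was, nor for miR-34a, for which it was the highest of the 6. The order of the mice for miR-204 differed from that of the miR-200 and miR-183 assays.

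Across the 6 mice, on the global mean scale, miR-204 and its other arm had a Pearson r of 0.42, miR-204 and miR-34a one of 0.66, and miR-34a and miR-449b one of -0.61. These are descriptions over 6 points, in which the assays share the RNA of each mouse and its scaling. Of the 236 other assays detected throughout, the 3 most like miR-204 were mmu-miR-106a (r = 0.93), hsa-miR-16 (0.91) and hsa-miR-331 (0.89), and the 3 most like miR-34a were hsa-let-7d (0.98), mmu-miR-685 (0.98) and RNO-MIR-146B (0.98). No other member or assay of the epithelial list was among these. Only 4 assays of each set were detected in all 6 mice, so their absence says little.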

How the data were processed

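Per the labels' protocols, prefrontal cortex of 3 C57BL/6J and 3 BTBR mice was dissected fresh and frozen, total RNA was purified on columns, and after reverse transcription and pre-amplification it was loaded on the TaqMan OpenArray rodent panel. The deposited raw table holds cycle thresholds and the authors' normalized table those of 306 assays after quantile normalization (per the file headers), with 40 for undetermined. Instrument software: not given in the sources used here. The authors' deposited comparison gives, per the file headers, a fold as a ratio of BTBR to C57BL/6J, the difference of mean thresholds (log2 scale, sign turned), a test score, and a raw and an adjusted p-value.

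Thresholds were multiplied by -1, so that 1 cycle stands for 1 unit of log2. Raw values under 10 or at 40 were treated as missing. Assays with at least 2 values per strain were tested in limma 3.58.1 (R 4.3.3; lmFit, then eBayes), strain being the single term, with Benjamini-Hochberg adjustment over all assays tested and a threshold of 0.05. As a second scale, the average of the 237 assays read in all 6 samples (the global mean) was subtracted from each sample's raw values. Counts and within-sample gaps were compared by a two-sided exact permutation test, which cannot go below p = 0.1 here. A threshold has no counting depth: 1 PCR per assay and 3 mice per strain limit the precision.

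In simulated data with 60 changed assays in each of 50 runs, the fit on the authors' scale (231 assays) found 15.4% of 1-cycle, 57.0% of 2-cycle and 77.6% of 3-cycle changes, with 4.46% of calls false. The fit on the global mean scale (270 assays) found 9.80%, 51.8% and 69.7%, with 3.88% false. Member assays were taken by miRNA name and all are named. The members and the lists (other choroid plexus and ciliated epithelium, neuron, oligodendrocyte, blood) were chosen with earlier results of these data known. Of the other epithelial list, the rule names each assay that passed and up to 3 tested assays with the lowest mean raw threshold; hsa-miR-449 and the other assays of all lists were named after their values were seen. Alternatives covered scaling, the handling of 40, detection filters, a replicate block and leaving out each mouse.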

Additional observations from a re-analysis of the deposited data

How the results depend on the processing

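Of the members' results, the change of miR-204# kept its sign in all 11 alternatives on the authors' scale (-2.42 to -0.71) and all 13 on the global mean scale (-1.80 to -0.44), and that of miR-34a in all 13 on the global mean scale. A negative change was common: before any alternative, 190 of 231 tested assays had one on the authors' scale and 165 of 270 on the global mean scale. The alternatives also reuse the same 6 mice. With sample medians set equal, the authors' values gave 0.16 for miR-34a, 0.87 for miR-204 and 2 passing assays over the panel. With 40 kept as a value, 96 of 306 assays passed, 26 higher and 70 lower. The 1 member among them (higher) was miR-34b-3p, whose C57BL/6J values are all 40, so that call rests on the 40s and gives no fold. With at least 3 detected values per strain, 82 of 189 assays passed, 81 of them lower, and 1 of these was a member (miR-204#). On raw thresholds centred on the mean of detected U6 spots, miR-449b was at -0.45 and 1 assay of the panel passed. Leaving out 1 mouse at a time gave 0 to 101 passing assays on the authors' scale and 0 to 57 on the global mean scale, where only the fit without BTBR replicate 3 gave a count above 0. On the global mean scale it gave -0.70 to 0.14 for miR-204 (positive without C57BL/6J replicate 1) and -0.94 to 2.83 for miR-449b (negative without C57BL/6J replicate 1 or 2). The cause of these moves was not tested. Replicate numbers name separate mice. Correlations of same-numbered deviations were 0.02, 0.41 and -0.10, and those of different-numbered ones ran from -0.51 to 0.33. So few values cannot decide whether same-numbered samples were handled together. With the replicate numbers as a block 32 assays of the panel passed on the authors' scale, and the members' calls stayed at 0. The gap between the arms of miR-204 was 0.215 to 1.54 cycles with 1 mouse left out. Readings near 30 cycles or later, such as those of miR-34c and miR-449b, limit what can be said of those assays.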
